A study of Mus musculus with 45 samples.

Results

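Collagens and laminins were described here across the hippocampi of 45 mice: every protein-coding gene of the table whose symbol is that of a collagen chain (Col, a number, a, a number) or of a laminin chain (Lama, Lamb or Lamc with a number). The table held 50 such genes, 39 collagens and 11 laminins, among 15897 genes. The annotation lists 55 genes that fit the rule, and the other 5, Col6a6, Col9a1, Col10a1, Col24a1 and Col28a1, were not analysed here. The authors had dropped genes with few counts before deposit, and no further filter was applied, so all 50 entered every test.

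The mice were females on a C57Bl/6J background, killed at 13 months of age. APP/PS1 mice carried a mouse/human APP with the Swedish mutation together with human PS1 lacking exon 9, both expressed from the mouse prion protein promoter. Tau mice carried human Tau P301L under the CaMKII promoter, which is active in forebrain excitatory neurons. A+ or Aw stands for mice with or without APP/PS1, and T+ or Tw for mice with or without the Tau transgene, so A+T+ mice carried both and AwTw mice neither. From 7 months on, mice ate a Typical Western Diet (TWD) with 21% fat, 0.15% cholesterol and 35% sucrose, or a standard diet (STD) with 5% fat and 0% cholesterol. Each of the 8 groups held 6 mice, except A+Tw/STD with 5 and A+T+/STD with 4.

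Collagens are secreted proteins whose chains wind into triple helices, and a helix often needs the products of several genes. Fibrillar collagens form the fibres of connective tissue, type IV collagen forms the sheet of the basement membrane, type VI collagen forms beaded filaments, and transmembrane collagens sit in the cell surface. Laminins are heterotrimers of an alpha, a beta and a gamma chain and form the other network of the basement membrane. In brain both are found around vessels, in the meninges and in the choroid plexus, the tissue in the ventricles that makes cerebrospinal fluid, while parenchyma itself has little fibrillar collagen.

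The promoter windows of genes whose values are compared as pairs, and of Col6a1, which passed the test for both diet and APP/PS1, are given 5′ to 3′, from 250 bases before to 50 after the start of the gene (RefSeq, GRCm38.p6). A window was held for 35 of the 50 genes. In Col4a1 and Col4a2, which encode the main type IV chains and face away from each other, capitals mark the 78 bases that the windows share on opposite strands.
Col4a1, chr8:11312777-11313076, minus strand: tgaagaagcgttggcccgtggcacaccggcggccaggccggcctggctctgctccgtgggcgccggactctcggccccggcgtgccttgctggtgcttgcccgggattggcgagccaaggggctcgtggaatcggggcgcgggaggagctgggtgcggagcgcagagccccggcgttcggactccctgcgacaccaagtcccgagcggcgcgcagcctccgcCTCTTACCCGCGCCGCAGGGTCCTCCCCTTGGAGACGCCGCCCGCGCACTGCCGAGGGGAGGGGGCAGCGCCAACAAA
Col4a2, chr8:11312555-11312854, plus strand: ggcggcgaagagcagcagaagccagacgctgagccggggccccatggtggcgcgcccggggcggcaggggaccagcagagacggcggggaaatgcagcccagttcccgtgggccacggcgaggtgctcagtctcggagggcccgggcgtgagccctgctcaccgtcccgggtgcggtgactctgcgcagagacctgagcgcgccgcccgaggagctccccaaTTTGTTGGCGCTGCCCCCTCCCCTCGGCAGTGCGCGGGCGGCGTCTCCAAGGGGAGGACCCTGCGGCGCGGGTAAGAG
In the windows of Col8a1 and Col8a2, which encode the type VIII chains, and in that of Col6a1, capitals mark matches on either strand to the TATA motif (TATAAA), to the motif read as CCAAT and to the GC motif (GGGCGG). Matches may overlap one another.
Col8a1, chr16:57754688-57754987, minus strand: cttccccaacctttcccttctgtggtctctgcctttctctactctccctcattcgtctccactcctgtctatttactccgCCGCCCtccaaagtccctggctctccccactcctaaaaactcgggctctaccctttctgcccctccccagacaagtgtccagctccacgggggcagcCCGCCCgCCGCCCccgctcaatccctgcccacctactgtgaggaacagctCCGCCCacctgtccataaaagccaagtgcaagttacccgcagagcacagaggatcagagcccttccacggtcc
Col8a2, chr4:126286544-126286843, plus strand: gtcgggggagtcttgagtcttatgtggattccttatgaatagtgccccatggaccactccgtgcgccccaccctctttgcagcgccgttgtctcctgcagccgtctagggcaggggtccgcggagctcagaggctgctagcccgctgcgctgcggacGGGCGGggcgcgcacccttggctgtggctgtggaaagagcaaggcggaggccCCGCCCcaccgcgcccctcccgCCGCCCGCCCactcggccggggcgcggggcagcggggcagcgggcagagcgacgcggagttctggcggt
Col6a1, chr10:76725995-76726294, minus strand: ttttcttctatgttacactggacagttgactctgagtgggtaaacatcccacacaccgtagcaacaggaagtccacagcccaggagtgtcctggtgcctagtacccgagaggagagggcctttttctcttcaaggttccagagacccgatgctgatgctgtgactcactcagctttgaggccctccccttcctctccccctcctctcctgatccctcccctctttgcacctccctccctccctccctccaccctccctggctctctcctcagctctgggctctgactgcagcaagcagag
GGGCGG was found 4 times in each type VIII window and CCAAT and TATAAA in neither, and no motif was found in the Col6a1 window. Over all 32851 windows, 35.7% held GGGCGG, 37.4% held CCAAT and 13.6% held TATAAA. Of the 38 windows of collagen and laminin genes, 25 held GGGCGG, 13 held CCAAT and 4 held TATAAA.

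The genes that passed a test below lie, in GRCm38 with GENCODE gene ends, as follows: Col5a2 (ENSMUSG00000026042) at chr1:45374321-45503282, Col11a1 (ENSMUSG00000027966) at chr3:114030540-114220718, Col25a1 (ENSMUSG00000058897) at chr3:130131501-130599877, Col27a1 (ENSMUSG00000045672) at chr4:63214004-63334991, Col9a2 (ENSMUSG00000028626) at chr4:121039385-121055322 and Col6a1 (ENSMUSG00000001119) at chr10:76708792-76726168.

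Values are on the deposited log2-like scale, from which the authors had already removed the difference between the batches numbered in the labels. The medians of the mice lay between 8.05 and 8.31 and every pair of mice correlated at 0.858 or above over all genes. Markers of hippocampal neurons were high in all mice, with a mean between 12.04 and 13.04 over 9 genes. Markers of the choroid plexus were not: the mean of 16 markers ran from 5.70 to 9.85, and a score made from them left a gap between 17 mice at or below -0.57 and 28 mice at or above -0.07. Of the AwTw mice 4 of 12 lay above this gap, against 7 of 12 AwT+, 8 of 11 A+Tw and 9 of 10 A+T+ mice. The first principal component of all genes held 43.6% of the variance and differed between diets, with a mean of -13.91 ± 25.04 (SD, n = 21) in STD and 12.2 ± 28.8 (SD, n = 24) in TWD mice. Since the tissue is bulk hippocampus, a lower value of a gene can mean fewer cells of a type or less RNA per cell, which cannot be told apart.

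Per transcript length, the highest mean levels among the 50 genes were those of Col9a3, Lamb1, Col6a1, Lamb2, Col4a2, Col4a1 and Lamc1, from 7.04 down to 6.14 on the log2 scale per kilobase. Col9a3 encodes a chain of type IX collagen, and Col4a1, Col4a2, Lamb1, Lamb2 and Lamc1 encode the basement membrane chains of vessels. The lowest was Col7a1, the collagen of the fibrils that anchor skin, at 2.30. Of these basement membrane chains, 4 varied little between mice: the SD over 45 mice was 0.19 for Col4a2, 0.22 for Lamc1, 0.26 for Lamb1 and 0.29 for Col4a1, while that of Lamb2 was 0.45. Col8a1, at 1.06, Col9a3, at 1.06, and Col8a2, at 0.98, varied most. The Col9a3 values ran from 6.99 to 10.6 and those of Col8a1 from 4.90 to 8.81.

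Whether the diet moved these genes was asked over all genotypes, with TWD against STD mice compared within genotype and batch. Col25a1, Col11a1, Col5a2 and Col6a1 were lower and Col9a2 was higher in TWD mice, and none of the 11 laminins passed the test. Col25a1 is a transmembrane collagen of neurons whose shed form is found in amyloid plaques. Col11a1 and Col5a2 are fibrillar chains that set the width of fibrils. These 5 of 50 genes compare with 29.4% of all genes, of which 16% were higher and 13.4% lower in TWD, so the share of collagen and laminin genes that passed, 4 lower and 1 higher, was below that of the table. Only 23 of the 50 had a mean value above the 25th percentile of the table, 6.69. Whether the low level of the rest bears on the smaller share was not tested. The median difference over the 50 genes was -0.07, with 17 of 50 above 0, and -0.00 over all genes. Markers of cell types moved with diet as well, in several lists in both directions. Of 12 microglia markers 8 passed, 7 higher and 1 lower (median 0.32). Of 12 mural markers 5 passed, 3 higher and 2 lower (median 0.18). Of 8 astrocyte markers 4 passed, 1 higher and 3 lower (median -0.06). Of 9 neuron markers 4 passed, 1 higher and 3 lower (median -0.10). Among the others, 3 of 14 endothelial markers passed, 2 higher and 1 lower (median 0.02). Also past the test were 3 of 8 oligodendrocyte markers, all higher (median 0.15), and none of 12 fibroblast markers (median 0.13). None of the 16 choroid plexus markers passed and 0 of 16 lay above 0, with a median of -0.49. With the choroid plexus score as a covariate 6 members passed, beside 33.3% of all genes. A fit with a score of the fibroblast markers as a covariate was also run, and its diet result is not given here. The part of the other cell types in the 5 calls was not tested.

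Col25a1 ran from 8.17 to 9.52 with a median of 9.10 in STD mice and from 7.65 to 9.26 with a median of 8.62 in TWD mice. The ranges overlapped, and the TWD mean was lower than the STD mean in all 4 genotypes, for example 8.57 ± 0.47 against 9.15 ± 0.33 in AwTw mice (SD, n = 6 each). The fitted difference was -0.43 ± 0.12 (SE, limma adjusted p = 0.0159). Col11a1 lay between 5.53 and 7.21 in STD mice, with a median of 6.44, and between 5.25 and 6.70 in TWD mice, with a median of 5.97. It differed by -0.49 ± 0.15 (SE, limma adjusted p = 0.0189), and its A+T+ means, 6.01 in STD and 6.00 in TWD, lay close together. Col5a2 had medians of 6.66 in STD and 6.32 in TWD mice, with ranges of 6.20 to 7.42 and 5.96 to 7.07, and differed by -0.34 ± 0.11 (SE, limma adjusted p = 0.0206).

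Col6a1, the chain that every type VI collagen helix holds, fell from a median of 8.93 (range 7.74 to 10.5) in STD to 8.44 (range 7.67 to 10.1) in TWD mice. Its difference was -0.42 ± 0.16 (SE, limma adjusted p = 0.0399). Col9a2, a chain of type IX collagen, had medians of 7.08 in STD and 7.54 in TWD mice and rose by 0.33 ± 0.13 (SE, limma adjusted p = 0.0483). In A+T+ mice the Col9a2 means were 7.76 in STD and 7.53 in TWD, and the test of whether the diet difference varied with genotype did not pass. Both diets overlapped widely for Col6a1 and for Col9a2.

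**Figure D1:**
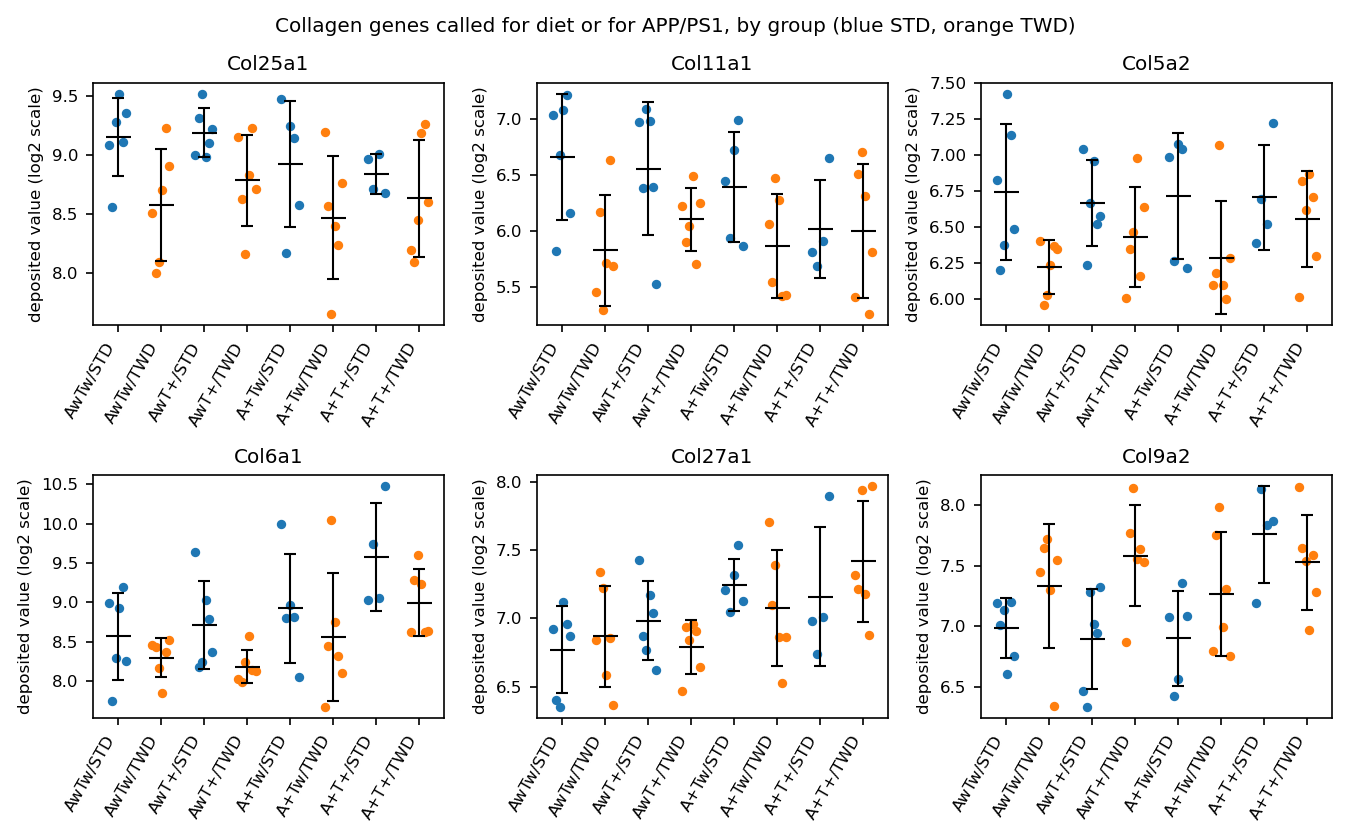
Values of 6 collagen genes in each mouse on the deposited log2 scale (vertical axis), by genotype and diet (horizontal axis). Points are mice, blue for STD and orange for TWD, and black marks are the mean ± SD of a group. Col25a1 and Col5a2 have a lower TWD than STD mean in all 4 genotypes, while the ranges of the diets overlap.

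In the 25 mice of batch 1 all 5 genes were among the 8 that passed, beside 40.9% of all genes. In the 20 mice of batch 0 limma passed 0 genes of the table, while 8 members and 5.55% of all genes had an unadjusted p under 0.05. There Col25a1 differed by -0.33 ± 0.18, Col5a2 by -0.24 ± 0.15, Col6a1 by -0.24 ± 0.27 and Col11a1 by -0.15 ± 0.22 (SE), and Col9a2 by -0.06. With the first principal component of the residuals as a covariate limma again passed 0 genes. At an unadjusted p under 0.05 there were 1 member and 8.34% of all genes, and the Col25a1 difference was -0.18 ± 0.10 (SE). A covariate unrelated to diet would have left that difference as it was, so this component shared variation with diet. The fit therefore cannot separate the diet difference from the component. Col25a1, Col11a1 and Col5a2 followed the first component of all genes with r of -0.78, -0.67 and -0.57, given as a description. With the dependence on length and GC content of the transcripts removed, an alternative chosen after seeing the data, Col6a1 was the 1 member that passed, beside 13.4% of all genes, and Col25a1 had a limma adjusted p of 0.0516. Col6a1 passed in 30 and Col9a2 in 17 of the 45 fits that each left out 1 mouse.

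By class, the diet difference passed the test for 2 of 10 fibrillar genes, 1 of 5 type VI genes, 1 of 8 fibril-associated genes and 1 of 4 transmembrane genes. None of 6 type IV, 2 short chain, 2 multiplexin or 2 other collagens passed. Among the basement membrane genes Col4a1 differed by 0.12 ± 0.08, Col4a2 by -0.05 ± 0.06, Lamb1 by 0.04 ± 0.08, Lamc1 by 0.03 ± 0.07 and Lamb2 by 0.20 ± 0.13 (SE, none passed the test). Within the mice of batch 1 Lamb2 passed, at 0.43. Over all mice the other type IV genes, Col4a3 to Col4a6, differed by -0.25 to -0.06 without passing. The interval of the Lamc1 difference was -0.11 to 0.16. Of the laminin alpha genes, Lama2 differed by -0.07, Lama4 by 0.05 and Lama5 by 0.25, and of the type I and III genes Col1a1 by 0.25, Col1a2 by 0.08 and Col3a1 by 0.06, all without passing. Col8a1 had the widest interval, from -1.08 to 0.06 around -0.51.

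**Figure D2:**
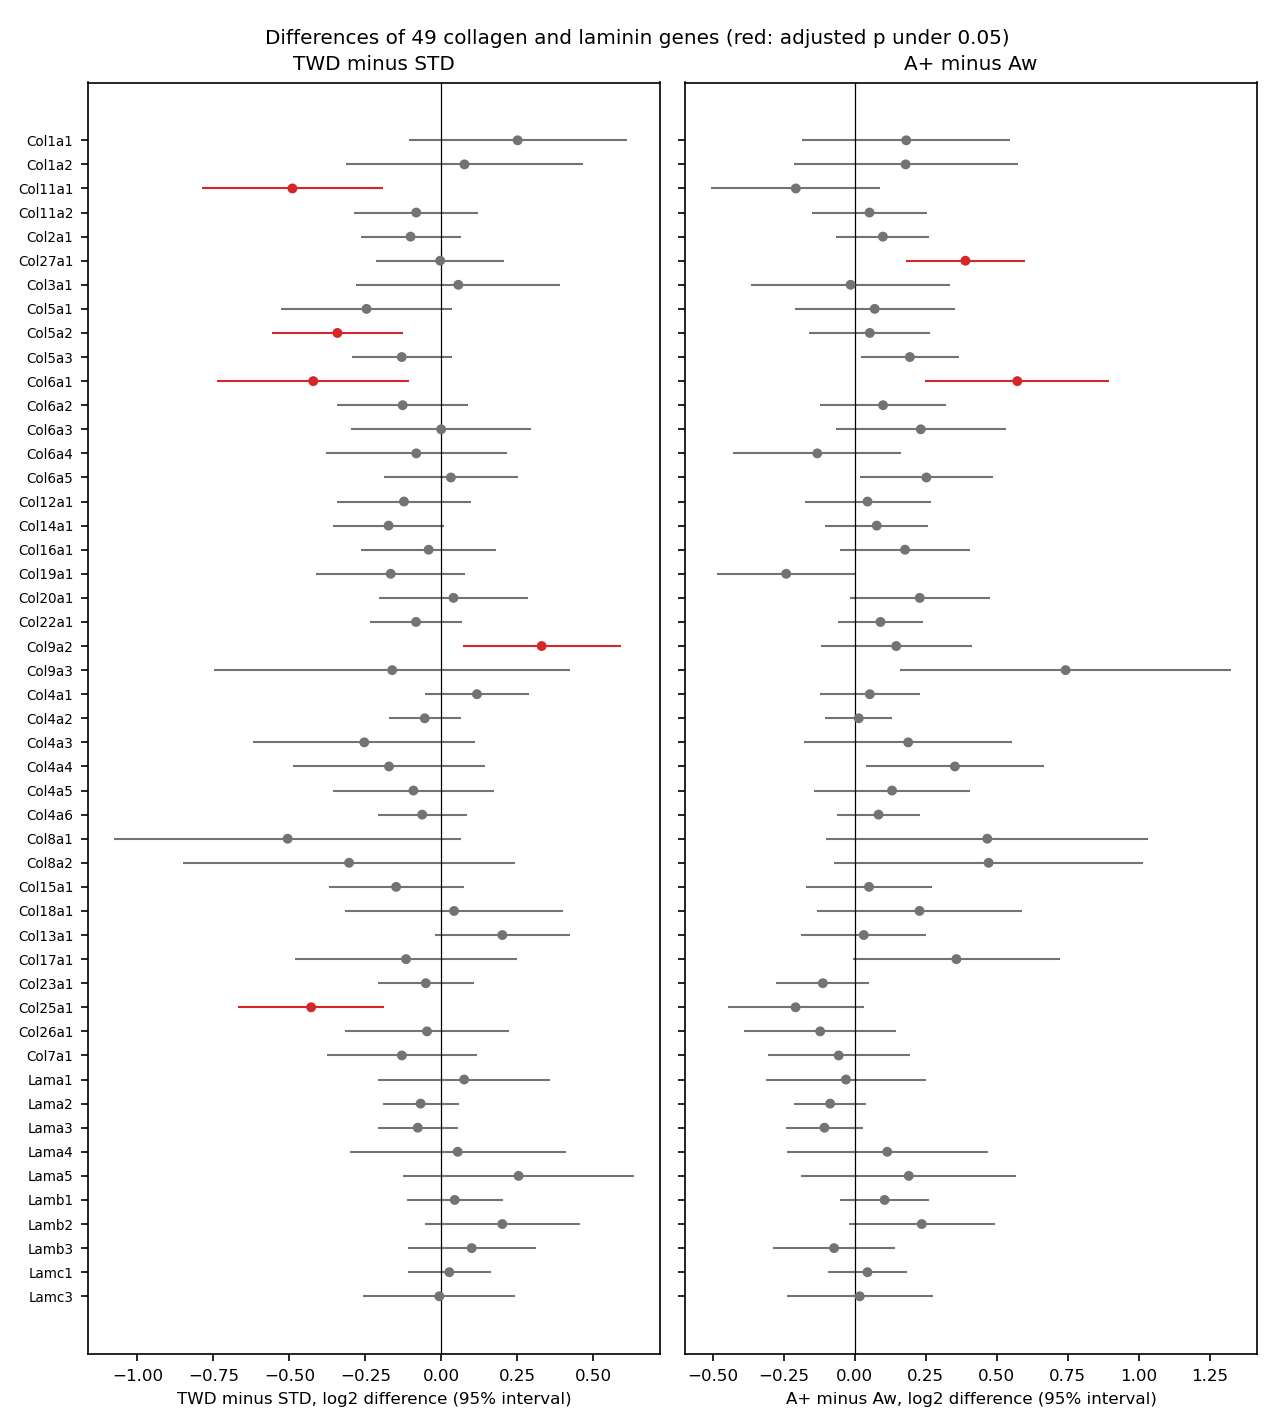
Fitted log2 differences (horizontal axes) with 95% intervals of 49 of the 50 genes (vertical axis, ordered by structural class), for TWD minus STD on the left and A+ minus Aw on the right. Red marks the 5 and the 2 genes with an adjusted p under 0.05.

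APP/PS1 was compared over both diets and both Tau genotypes, with A+ against Aw mice. Col27a1, a fibrillar collagen of cartilage, and Col6a1 were higher in A+ mice, and no gene was lower. The 2 of 50 compare with 3.78% of all genes, 3.1% of them higher, which is near the share of the collagen and laminin genes. The median of the 50 was 0.09, with 37 above 0, and -0.02 over all genes. Col27a1 had a median of 6.87 (range 6.35 to 7.43) in 24 Aw mice and 7.18 (range 6.52 to 7.97) in 21 A+ mice, a difference of 0.39 ± 0.10 (SE, limma adjusted p = 0.0186). Col6a1 had a median of 8.33 (range 7.74 to 9.64) in Aw and 8.81 (range 7.67 to 10.5) in A+ mice, a difference of 0.57 ± 0.16 (SE, limma adjusted p = 0.0278).

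The ranges overlapped for both genes. The 4 A+T+/STD mice had Col6a1 values of 9.03, 9.06, 9.74 and 10.5, and the 5 A+Tw/STD mice 8.05, 8.80, 8.81, 8.96 and 9.99, against 7.74 to 9.20 in the 6 AwTw/STD mice. In A+Tw mice on TWD 1 mouse reached 10.1 while the group's median was 8.38. Neither gene passed within a batch: the Col27a1 difference was 0.63 in batch 0 and 0.18 in batch 1, and that of Col6a1 0.76 and 0.34. With the choroid plexus score as a covariate Col6a1 no longer passed (difference 0.54, limma adjusted p = 0.0836) while Col27a1 did. Leaving out A+T+/STD replicate 4 gave Col6a1 an adjusted p of 0.0708.

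Col9a3 differed by 0.74 ± 0.29 and did not pass (limma adjusted p = 0.182). Its median was 7.93 in Aw and 9.16 in A+ mice, and its mean was 7.99 in AwTw/STD, where 2 of 6 mice lay above the choroid plexus gap, and 9.63 in A+T+/STD, where 4 of 4 did. The choroid plexus markers were themselves higher in A+ mice in 16 of 16 genes, with a median of 0.74 and none past the test. Microglial markers, for comparison, passed in 10 of 12 genes with a median of 1.03.

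For the Tau transgene, T+ against Tw mice, none of the 50 genes passed, and 0.0126% of all genes did. At an unadjusted p under 0.05 there were 17 of 50, beside 4.89% of all genes, and 45 of 50 differences lay above 0 with a median of 0.14, against -0.01 over all genes. Col8a1, at 0.82 ± 0.28, Col8a2, at 0.65 ± 0.27, Col18a1, at 0.44 ± 0.18, and Col4a5, at 0.43 ± 0.14, were among the largest. The smallest limma adjusted p of the 50 was 0.814. All 16 choroid plexus markers lay above 0 with a median of 0.89, and all 12 fibroblast markers with a median of 0.26. With the choroid plexus score as a covariate the median of the 50 was 0.06.

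Each transgene was also compared with AwTw mice on the same diet, the AwTw groups being shared by these comparisons. No collagen or laminin gene passed in any of the 6. Of all genes the A+T+ mice had 1.32% past the threshold on STD and 0.73% on TWD, the A+Tw mice 0.925% on STD and 0.824% on TWD, and the AwT+ mice 0% on either diet. At an unadjusted p under 0.05 there were 13 of the 50 genes for A+T+ on STD, beside 14.3% of all genes, and 5 on TWD, beside 7.76%. For A+Tw there were 4 on STD, beside 5.66%, and 1 on TWD, beside 5.2%, and for AwT+ 0 on STD, beside 2.39%, and 3 on TWD, beside 3.04%. In A+T+/STD, 42 of 50 differences lay above 0 with a median of 0.21, which was 0.05 with the choroid plexus score as a covariate. Its largest values were 1.68 ± 0.64 for Col9a3, 1.54 ± 0.59 for Col8a2, 1.48 ± 0.62 for Col8a1 and 1.03 ± 0.35 for Col6a1 (SE, limma adjusted p between 0.168 and 0.274). All 4 A+T+/STD mice, against 2 of 6 AwTw/STD mice, lay above the choroid plexus gap.

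Within single genotypes the diet moved no collagen or laminin gene past the threshold. In AwTw mice, where 9.35% of all genes passed, Col11a1 came nearest, with a mean of 6.66 ± 0.56 in STD and 5.82 ± 0.49 in TWD mice (SD, n = 6 each) and a limma adjusted p of 0.0502. It passed with the choroid plexus score as a covariate and without the batch covariate. For the other genotypes, and in the 3 tests of whether the diet difference varied with genotype, 0% of all genes passed. At an unadjusted p under 0.05 there were 3 of 50 for AwTw mice, beside 40.2% of all genes, 3 for AwT+, beside 7.44%, 0 for A+Tw, beside 4.43%, and 3 for A+T+, beside 2.57%. The tests of the varying diet difference had 1 of 50 for AwT+, 0 for A+Tw and 1 for A+T+ mice at that level, beside 4.02%, 2.21% and 6.3% of all genes.

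Whether chains that share a helix, a heterotrimer or, for types I and III, a fibre moved together from mouse to mouse was asked for 18 pairs of genes. The type I genes Col1a1 and Col1a2 followed each other with r = 0.93 and rho = 0.89 over 45 mice (permutation p = 1e-05, the smallest 100000 permutations can give, limma adjusted p = 5.3e-14). The r was 0.94 in batch 0, 0.92 in batch 1, 0.93 after group and batch means were removed and 0.92 without the 2 mice farthest from the median. Of all genes, 2 followed Col1a1 more closely than Col1a2 did, and 3.38% passed the test of association with Col1a1. Col3a1, of type III collagen, followed Col1a1 with r = 0.68 and rho = 0.64 (permutation p = 1e-05, limma adjusted p = 6.7e-04).

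The type VIII genes split by choroid plexus score. Col8a1 and Col8a2 had r = 0.74 in the 28 mice above the gap (permutation p = 1e-05, the smallest possible) and 0.55 in the 17 below it (permutation p = 0.0238), and -0.07 once the score was removed from both. Association with Col8a1 passed for 4.77% of all genes. Col4a3 and Col4a4, type IV chains of specialised membranes whose genes face away from each other with 71 bases between them, had r = 0.52 above the gap (permutation p = 0.00528) and -0.07 below it, and -0.00 with the score removed. Of all genes 3.93% were associated with Col4a3. Over all 45 mice r was 0.93 for Col8a1 with Col8a2 and 0.78 for Col4a3 with Col4a4. The mean values of Col4a3 and Col4a4 were low, 5.41 and 5.74, below the 25th percentile of the table, 6.69. Whether this low level bears on their r was not tested.

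Col4a1 and Col4a2, whose promoter windows overlap as printed above, had r = 0.38 and rho = 0.36 (permutation p = 0.0111, limma adjusted p = 0.0735), with r of 0.22 in batch 0 and 0.49 in batch 1, and 1794 genes followed Col4a1 more closely than Col4a2 did. The 2 genes overlap by 22 bases on opposite strands, and whether the counting used strand is not given in the sources used here. No gene of the table passed for Col4a1, 0% of them. Col4a5 and Col4a6, which also face away from each other, had r = 0.60 (rho = 0.60, permutation p = 1e-05, limma adjusted p = 0.104), beside 0.157% of all genes. A gene without a symbol repeats the values of Col4a6 exactly.

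Among the other collagens, Col5a1 and Col5a2 had r = 0.63 (rho = 0.64, permutation p = 3e-05, limma adjusted p = 0.00532), with 1.31% of genes associated with Col5a1. Col6a1 and Col6a2 had r = 0.59 (rho = 0.60, permutation p = 5e-05, limma adjusted p = 0.0172), and Col6a1 and Col6a3 0.16 (rho = 0.06, permutation p = 0.292), with 9.19% of genes associated with Col6a1. Col9a2 and Col9a3 had r = 0.43 (rho = 0.43, permutation p = 0.00347, limma adjusted p = 0.0231) beside 25.5% for Col9a2, but 0.10 above and 0.17 below the choroid plexus gap. Col11a1 and Col11a2 had r = 0.20 (rho = 0.18, permutation p = 0.188) beside 40.4% for Col11a1.

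Of the 7 laminin pairs 1 passed over all genes, and of the 11 collagen pairs 7. Lama5 and Lamb2, chains of vessel and epithelial laminins, had r = 0.68 (rho = 0.67, permutation p = 1e-05, limma adjusted p = 2.1e-04) beside 38.2% of all genes for Lama5. The beta and gamma chains found in most laminins, Lamb1 and Lamc1, had r = 0.11 (rho = 0.12, permutation p = 0.474), and 0% of genes were associated with Lamb1. Lamb2 and Lamc1 had r = 0.32 (rho = 0.38, permutation p = 0.0315, limma adjusted p = 0.121) beside 44.6% for Lamb2. Lama2 and Lamb1 had r = -0.11, Lama4 and Lamb1 -0.02 and Lama1 and Lamc1 0.16 (permutation p = 0.486, 0.903 and 0.302), where the shares of all genes were 0.761% for Lama2, 0% for Lama4 and 2.22% for Lama1.

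The 8 pairs that passed over all genes were Col1a1 with Col1a2 and with Col3a1, Col4a3 with Col4a4, Col5a1 with Col5a2, Col6a1 with Col6a2, Col8a1 with Col8a2, Col9a2 with Col9a3 and Lama5 with Lamb2. The median r of the 18 pairs was 0.41 ± 0.11 (jackknife SE). Over all 1225 pairs of the 50 genes the median r was 0.17, against -0.00 over all pairs of genes in the table, and 5.39% of them had r of 0.6 or more, against 8.07%.

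**Figure D3:**
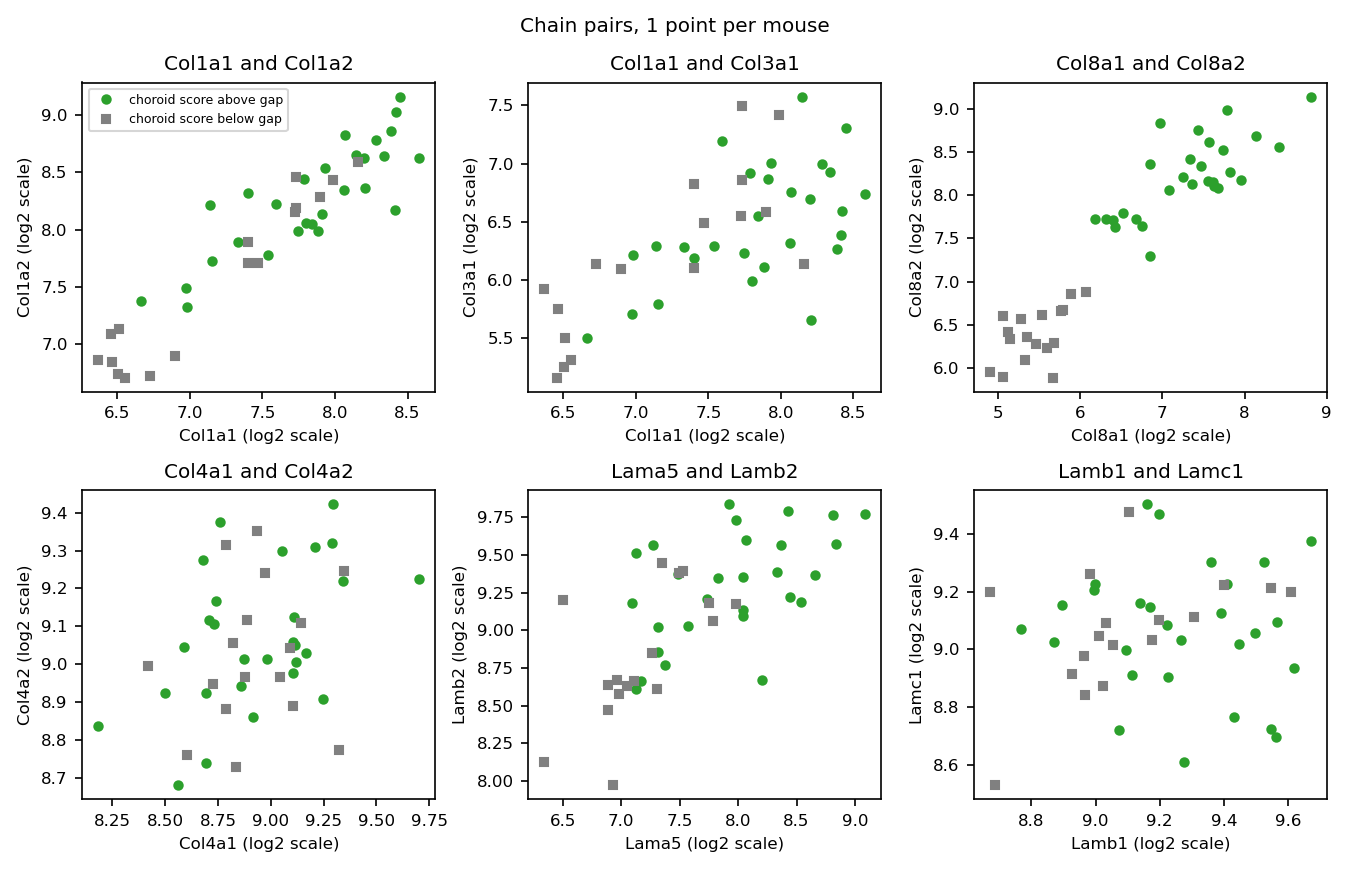
Values of 6 chain pairs on the deposited log2 scale, with the first gene on the horizontal and the second on the vertical axis and 1 point per mouse. Green circles are the 28 mice above the gap in the choroid plexus score and grey squares the 17 below. Col1a1 and Col1a2 lie along a line in both sets, Col8a1 and Col8a2 form a low and a high cloud, and Lamb1 and Lamc1 scatter.

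**Figure D4:**
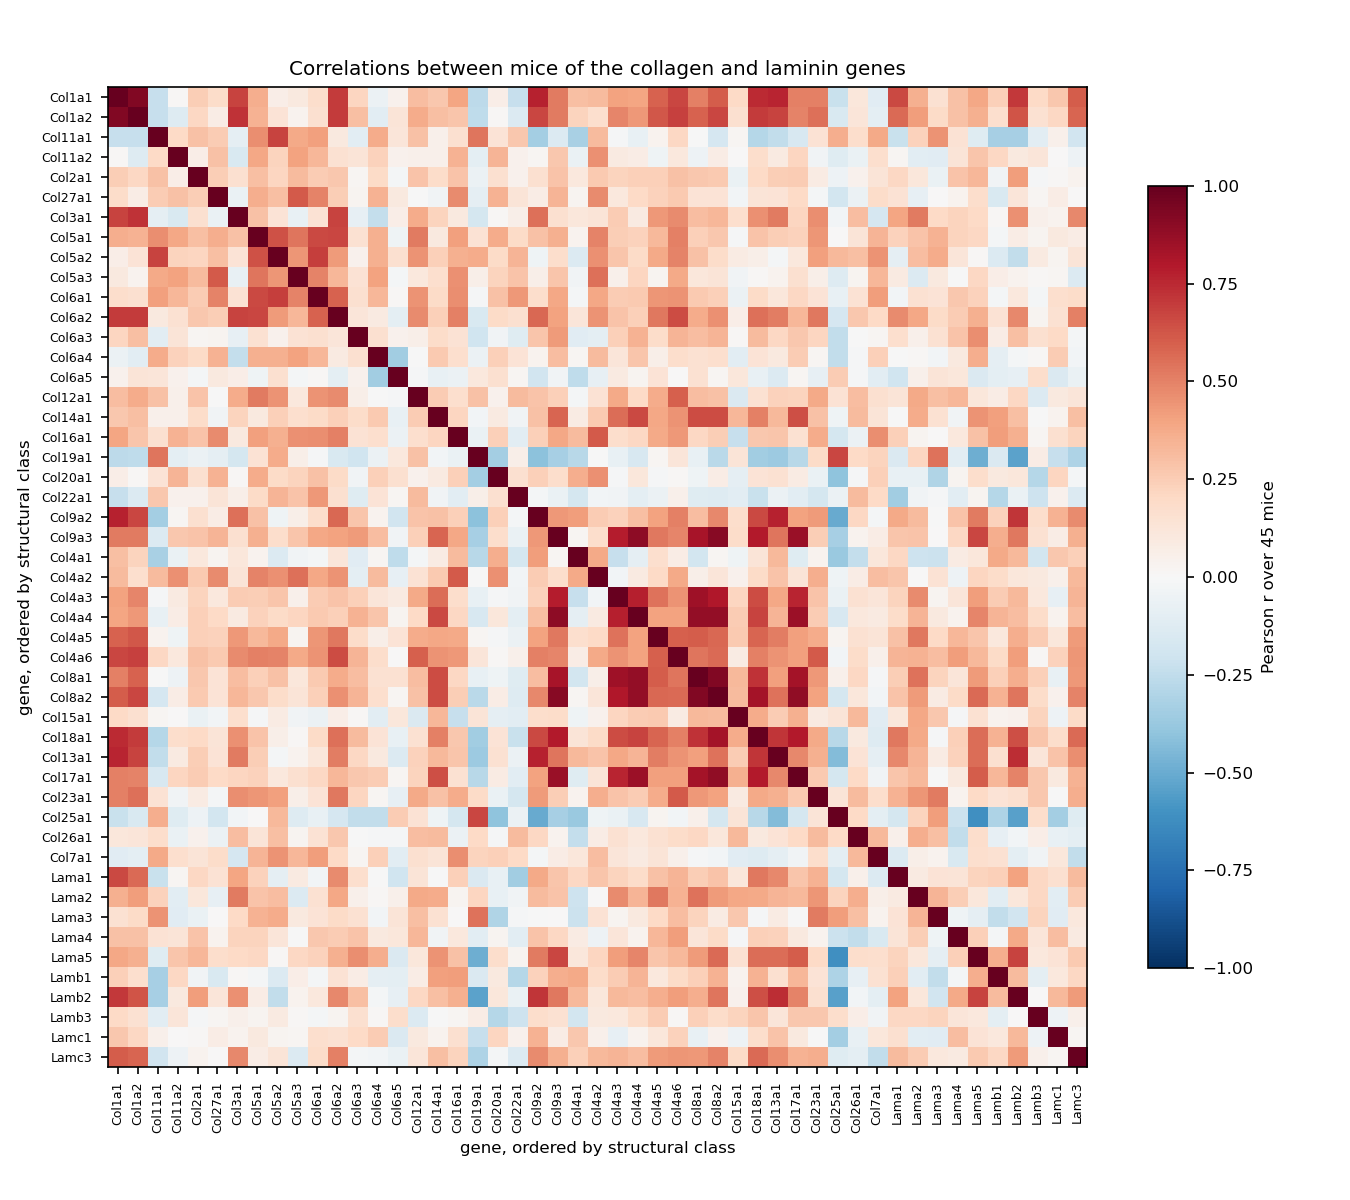
Pearson r over 45 mice for every pair of 49 of the 50 genes, both axes ordered by structural class, red for positive and blue for negative r. Col4a3, Col4a4, Col8a1, Col8a2, Col9a3 and Col17a1 form a red block across classes, and Col25a1 and Col19a1 give most of the blue.

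The genes of these blocks were set beside marker scores of other cell types, none of which holds a collagen or laminin gene. With group and batch in the fit, 14 of 50 genes were associated with the choroid plexus score, all rising with it, against 5.56% of all genes. Per SD of the score Col8a1 rose by 1.00, Col9a3 by 0.97, Col8a2 by 0.96, Col17a1 by 0.58, Col4a3 by 0.57, Col4a4 by 0.51 and Col18a1 by 0.50 (limma adjusted p between 1.9e-21 and 2.5e-07). Within the 28 mice above the gap, where 0.522% of all genes passed, 4 of 50 did: Col8a1, Col8a2, Col4a4 and Col4a3. Col17a1, a collagen of epithelial attachment, and Col18a1, the source of endostatin, did not pass there.

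With the score of meningeal and perivascular fibroblasts, 16 of 50 genes rose, against 2.5% of all genes. They were led by Col1a2 at 0.63 per SD, Col1a1 at 0.55 and Col3a1 at 0.41, with Col4a6 and Col6a2 next in order of r. Within the 28 mice above the choroid plexus gap 1 gene passed, Col1a2, beside 0.371% of all genes. The score of mural cells was associated with 18 genes, 17 of them rising, led by Col1a1 at 0.55, beside 37.2% of all genes, and that of endothelium with 13, beside 30.9%. Above the gap these were 1 gene, Col1a1, beside 0.214%, and 0 genes, beside 0.195%. The microglia score gave 11 genes, all falling with it, beside 48.9% of all genes, among them Col11a1 by -0.96 and Col6a1 by -0.80 per SD. Astrocytes gave 9 genes beside 28.2%, and oligodendrocytes 5 beside 14.7%. The neuron score gave 17 beside 35.2%, of which Col25a1 alone rose, by 0.30 per SD, and Lama5 fell by 0.55. Above the gap there were 5 genes for microglia, 8 for astrocytes, 0 for oligodendrocytes and 3 for neurons, beside 6.39%, 14.8%, 0.0252% and 13.8% of all genes. Whether these scores account for a difference between groups was not tested beyond the covariate fits given above.

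**Figure D5:**
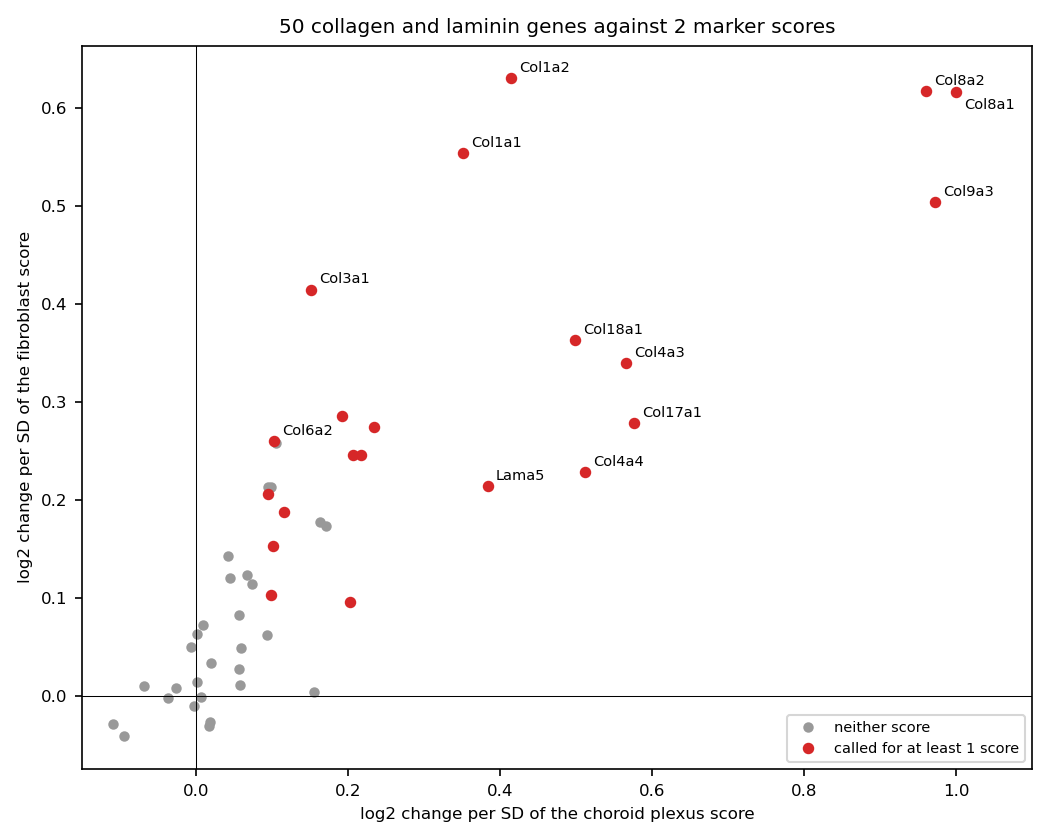
Log2 change of each of the 50 genes per SD of the choroid plexus score (horizontal axis) and per SD of the fibroblast score (vertical axis), with red for genes past the threshold for at least 1 score. Col8a1, Col8a2 and Col9a3 lie far right at 0.96 to 1.00, and Col1a1 and Col1a2 lie high at 0.55 and 0.63 with smaller choroid plexus values.

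Genes that act on collagens and laminins were counted in the same fits. Of 25 genes for folding, modification and crosslinking, 5 passed for diet: P4hb, which hydroxylates proline with its partners, rose by 0.32, Plod3 and Ppib rose by 0.24 each, and Adamts3, which trims procollagen, and Plod2 fell by 0.28 and 0.31. Of 14 receptors, Itgb1 and Ddr2 fell by 0.34 and 0.38 with TWD and the laminin receptor Bcam rose by 0.41. Of 13 turnover genes the protease inhibitors Timp2 and Timp3 fell by 0.19 and 0.24, and of 13 basement membrane partners Ntn4 fell by 0.27. These 11 of 65 genes compare with 29.4% of the table.

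With APP/PS1, 1 of 25 folding genes rose, P4ha3 by 0.35, as did the immune receptor of collagen Lair1 by 0.65, the protease inhibitor Timp1 by 0.51 and the collagen uptake receptor Mrc2 by 0.61 (limma adjusted p between 4.9e-09 and 0.00552). These 4 of 65 genes compare with 3.78% of the table, and none was a basement membrane partner. Against AwTw mice on the same diet, 2 of 65 passed in A+T+/STD, beside 1.32% of the table, Mrc2 higher by 1.22 and the matricellular gene Smoc1 by 0.50. On TWD, Lair1 alone passed, higher by 0.73 in A+T+ (0.73% of the table) and by 0.68 in A+Tw (0.824%). For diet in AwTw mice, 2 of 65 passed beside 9.35% of the table, Plod3 higher by 0.49 and Itgb1 lower, at -0.78. For the Tau transgene none of these lists had a gene past the threshold.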

How the data were processed

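Hippocampal RNA of 45 mice had been sequenced by the study as poly(A) libraries of short single reads. Per the labels and the study's methods, reads were trimmed with Trimmomatic 0.38 and filtered with Bowtie2 2.2.3, transcripts were quantified with kallisto 0.44.0, and genes with few counts were dropped before gene values were made with DESeq2 1.22.2. The deposited table holds variance-stabilised values on a log2-like scale, from which the authors had removed the batch with limma 3.38.3. Counts were not used here, so depth per mouse is unknown and no interval was computed from it. The limma p-values weigh a difference against the residual variation between mice, which also holds the noise of counting.

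Groups came from the labels. Differences were fitted over all 15897 genes with limma 3.58.1 (R 4.3.3, mean trend, batch as a covariate) and p-values were adjusted by Benjamini-Hochberg, with 0.05 as the threshold. The diet was fitted with genotype, and the transgenes with each other and diet. Batch stayed in the fit although the authors had removed it from the values. Only 1 A+Tw/STD mouse was in batch 0. Marker scores are means of standardised markers. Association with a score or gene was fitted with group and batch. Pair correlations used 100000 permutations (Python 3.11.15). The fits were also run on simulated data with independent noise for each gene. Such data lack the variation shared between genes that the real table has, so they say nothing about its effect.

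Genes named: at most 8 that passed per comparison in order of adjusted p, and Col4a1, Col4a2, Col1a1, Col1a2, Col3a1, Col6a1, Col8a1, Col8a2, Col9a3, Col18a1, Col25a1, Lama2, Lama4, Lama5, Lamb1, Lamb2 and Lamc1, with others given as the extremes of a class or list. The members, lists and pairs were chosen with earlier results of these data known. The values of 1 gene and of its pair are not reported here, though both are in the counts.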

Additional observations from a re-analysis of the deposited data

Results flagged for a closer look

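In groups of 4 to 6 mice, the values of 21 collagen and laminin genes were searched for a mouse far from the rest of its group by Dixon's test at its 95% critical value, in 168 combinations of gene and group. Chance flags about 1 in 20 combinations, and 9 of the 168 were flagged here, which is about as many as chance gives. AwT+/TWD replicate 1 was low for both type I genes, with 6.55 for Col1a1, where the next lowest mouse had 7.73, and 6.71 for Col1a2, where the next had 8.05. A+T+/TWD replicate 4 was low for Col8a2, at 5.89 against 7.72, and for Col9a3, at 7.63 against 9.16, and it was the 1 mouse of its group below the gap in the choroid plexus score. AwTw/TWD replicate 3 was high for Col9a3, at 10.5 against 8.21. AwTw/TWD replicate 5 was low for Col4a1, at 8.60 against 9.10, and for Col9a2, at 6.34 against 7.30. AwT+/STD replicate 3 was high for Lamb2, at 9.39 against 8.85, and A+Tw/TWD replicate 3 was high for Col5a2, at 7.07 against 6.28.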

How the results depend on the processing

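The 5 genes called for diet became 0 in batch 0 alone, beside 0% of all genes. In batch 1 alone they became 8 (adding Col1a1, Lama5 and Lamb2), beside 40.9%. With the main axis of the residual variance in the fit, which shared variation with diet, they became 0, beside 0%. Among genes above the 25th percentile of mean values, which hold 23 of the 50, 3 passed. With the length and GC trend removed 1 passed, beside 13.4%. Leaving out 1 mouse gave 3 to 5. The Col9a2 difference of 0.33 was -0.062 in batch 0. The 2 genes called for APP/PS1 became 0 in batch 0, beside 1.65% of all genes, and 1 in batch 1 (Col11a1), beside 2.18%. They became 1 with the choroid plexus score as a covariate, beside 2.75%, and 1 to 2 when 1 mouse was left out. For diet in AwTw mice the 0 became 1 with the choroid plexus score as a covariate, beside 16.6% of all genes. It became 1 without the batch covariate, 4 in batch 1 and 0 to 5 when 1 mouse was left out. The count was 5 without AwTw/TWD replicate 5 and 4 without AwTw/STD replicate 2. For these last fits the shares of all genes are not given here. The other comparisons stayed at 0 under every alternative run. The median pair correlation of 0.41 was 0.63 in batch 0, 0.19 with the choroid plexus score removed, 0.19 in mice below the gap, and 0.38 to 0.47 when 1 mouse was left out. The cause of these shifts was not tested. No paired analysis was possible because each sample is a different mouse with its own genotype and diet. The labels give no replicate numbers, and those used here follow the order of the samples. The splits by the choroid plexus gap, the length and GC trend, the fibroblast score covariate and counting exact copies once were chosen after seeing the data.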
